A study of Mus musculus with 81 samples.

Results

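Akr1e1 (ENSMUSG00000045410.18) is a gene of 10 exons on the minus strand of mouse chromosome 13, chr13:4590750-4609174 of GRCm38, and 7 of the 970384 long terminal repeat (LTR) loci in the deposited tables lie inside its gene body. All LTR loci wholly inside the GENCODE gene were taken as members, and all 7 fell in introns. The gene was chosen by the values of these loci in F3 P6 somatic cells, where they were lower in the TBT lineage than in the DMSO lineage, so that contrast is described below without a test, and the other 5 populations, the comparison of P5 with P4 and the DNA methylation reads are the measurements that the choice did not use.

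AKR1E1 is an aldo-keto reductase that reduces anhydrofructose, a sugar that can arise from glycogen, to anhydroglucitol. It stands beside the Akr1c cluster, whose members include hydroxysteroid dehydrogenases. LTRs are the terminal repeats of endogenous retroviruses, and many copies in the mouse genome lie in introns, where RNA of the host gene covers them, so that reads at such a locus need not come from a transcript that the LTR itself starts. In bulk RNA, fewer cells that express a gene and less RNA per cell cannot be told apart.

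The study exposed pregnant F0 dams of the OG2 line to 50 nM tributyltin (TBT), an organotin, or to the DMSO vehicle, and collected testes of E18.5 male fetuses in the F1 and F3 generations. OG2 carries EGFP under Pou5f1 control, which marks germline cells in the fetal testis; all groups carried the transgene, and the line, of B6;CBA origin, was kept on C57BL/6J. EGFP-positive germline cells were sorted into P4 and P5 by side scatter and EGFP-negative cells into P6, the somatic cells. The F0 dams were exposed from before mating through pregnancy and lactation, so the F1 fetuses were exposed in utero. F3 fetuses came from F1 pups, nursed by exposed dams, that were bred within each lineage to F2 and F3. For RNA, there were 5 DMSO and 7 TBT libraries of F1 P4, 4 and 7 of F1 P5, 5 and 7 of F1 P6, and 4 and 5 of each F3 population, 62 in all; for methylated DNA enriched with a methyl-CpG binding domain (MBD), there were 19 libraries of P6 cells, 3 DMSO and 4 TBT in F1 and 5 and 7 in F3. The study's methods call the MBD samples of each group independently generated. For the RNA libraries no source used here states separate animals or litters, so their p-values measure the spread between these libraries, which may be technical. In F1 germline cells, the library numbers of TBT begin with 45 or 47 and those of DMSO with 43, 44 or 48. What this first part marks is not given in the sources used here, so libraries that share it may not be separate units.

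The libraries held 246520 to 8161548 reads at LTR loci. The 4 shallowest libraries were F3 P4 TBT 5 and 9, F3 P5 DMSO 2 and F3 P5 TBT 5, with 833449, 1187234, 1606422 and 246520 reads, and the F3 germline results are therefore given with and without them. The 11 of 13 germ cell marker genes that hold an LTR locus summed to 36.1 to 65.1 CPM in F1 P6 and 9676 to 23330 CPM in F1 P4 and P5, and the 7 of 9 Sertoli cell marker genes with a locus summed to 1154 to 2036 CPM in all P6 libraries. The Sertoli sum also reached 1780 CPM in F1 P4 and 1109 CPM in F1 P5, so it overlapped between P6 and P4. The germline libraries thus held reads at Sertoli marker genes, and in F1 P4 only 3 of these genes had loci with enough reads to test. Which cells these reads came from was not tested. The germ cell sum was only 232 CPM in the shallow F3 P5 TBT library 5, and it reached 262 CPM in an F3 P6 DMSO library.

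The members fell into 4 introns. MLT1J2, an ERVL-MaLR element of 104 bases, lay in intron 8 at chr13:4594755-4594858. RLTR13D6 (ERVK, 931 bases) lay in intron 4 at chr13:4600236-4601166, and RLTR16B_MM (ERVK, 686 bases) in intron 3 at chr13:4601730-4602415. Intron 2 held the other 4, namely RMER17A2 (ERVK) at chr13:4602919-4603489 and chr13:4603584-4603899 and RLTR24 (ERV1) at chr13:4604491-4604590 and chr13:4604718-4605144. An eighth locus, MTE2a at chr13:4590623-4590860, crossed the end of exon 10 and was not counted as a member; it had at most 2.00 CPM in any library.

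**Figure D1:**
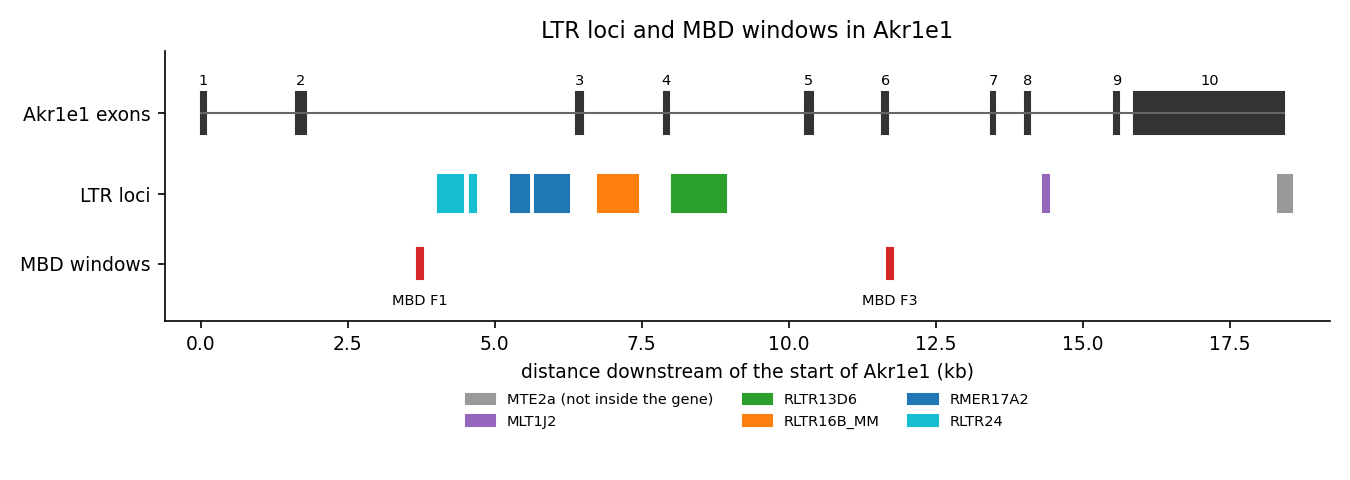
Akr1e1 with its 10 exons (top), the LTR loci (middle) and the MBD windows (bottom) against the distance in kb downstream of the start of the gene. The 7 members sit in introns 2, 3, 4 and 8, and the MTE2a locus at the far end crosses the edge of exon 10.

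The sequences of 3 members are shown because they differ in family and base composition, although the RMER17A2 and RLTR24 loci gave equal read numbers in 61 of 62 libraries. They are on the plus strand of GRCm38, opposite to the gene, with CpG dinucleotides, the sites of DNA methylation, in capitals. The first is the whole intron 8 locus, the second the first 300 of the 316 bases of an intron 2 locus (chr13:4603584-4603883), and the third the whole of the shortest intron 2 locus.
MLT1J2: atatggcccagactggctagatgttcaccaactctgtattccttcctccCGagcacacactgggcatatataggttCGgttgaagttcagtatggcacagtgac
RMER17A2: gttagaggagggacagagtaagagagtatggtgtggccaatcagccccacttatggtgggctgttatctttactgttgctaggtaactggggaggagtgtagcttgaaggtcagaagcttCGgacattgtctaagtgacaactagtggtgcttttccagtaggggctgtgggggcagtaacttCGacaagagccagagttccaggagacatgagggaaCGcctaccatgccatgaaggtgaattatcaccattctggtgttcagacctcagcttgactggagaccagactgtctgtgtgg
RLTR24: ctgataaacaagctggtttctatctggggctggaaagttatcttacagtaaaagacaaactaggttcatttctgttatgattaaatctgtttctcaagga
The members held 0 to 6 CpG sites each, with none in either RLTR24 locus, and up to 53.9% G and C, in RMER17A2 at 4602919.

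The 4 loci of intron 2 gave 1 measurement rather than 4. Their read numbers were equal in 60 to 62 of 62 libraries for each of the 6 pairs, and the largest difference was 3 reads, although the loci were 100 to 571 bases long. The longest run of bases that any 2 members in 1 intron share, on either strand, was 28 bases. Pairs of members in different introns had equal reads in only 4 to 6 libraries. Across the F3 P6 table, 40.0% of the 67685 pairs of adjacent tested LTR loci in a gene with no exon from one to the other had equal reads in every library, against 4.87% of the 28977 pairs with an exon between or under them, and in the other 5 populations these shares were 35.4% to 81% and 3.82% to 12.8%. Whether a read spliced across an intron was counted at the loci inside it is not given in the sources used here. Each intron is therefore given once below, with RMER17A2 at 4602919 standing for intron 2, except in mean levels and counts of calls over all members. CPM values are not per length.

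In F3 P6 somatic cells, all 7 loci were lower in the TBT lineage, and the libraries of the groups did not overlap at any of them. The values of this population chose the gene, so they are a description. The study, which counted reads at exons, reported no differentially expressed gene for F3 P6 cells. Exon counts and reads at intronic loci are unlike measures. In intron 2, the DMSO libraries had 8.47, 10.1, 11.4 and 11.9 CPM, and the TBT libraries had 2.02, 2.28, 2.72, 3.34 and 4.03 CPM. In intron 3, the DMSO libraries had 8.53, 9.67, 10.6 and 11.2 CPM, and the TBT libraries 1.66, 2.21, 2.44, 3.88 and 4.92 CPM. The highest TBT library of each intron thus stayed below the lowest DMSO library. In intron 4, the DMSO libraries had 9.68, 10.4, 13.1 and 18.52 CPM, and the TBT libraries 2.21, 3.34, 3.41, 4.41 and 4.55 CPM. In intron 8, the DMSO libraries had 9.43, 9.72, 13.5 and 16.2 CPM, and the TBT libraries 2.21, 3.09, 3.88, 4.92 and 4.97 CPM. DMSO library 4 was the highest at introns 3, 4 and 8 but the lowest at intron 2, and TBT library 5 was the lowest at introns 2, 4 and 8.

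The mean CPM was 10.5 ± 1.54 (SD, n = 4) in DMSO and 2.88 ± 0.817 (SD, n = 5) in TBT in intron 2, and 12.2 ± 3.22 and 3.81 ± 1.19 in intron 8. The ratio of the DMSO mean to the TBT mean was 3.64 in intron 2, 3.31 in intron 3, 3.60 in intron 4 and 3.201 in intron 8. On the log2(CPM + 1 unit) scale, where 1 unit is the value of a single read (0.197 CPM in F3 P6), the differences were -1.82 ± 0.23 (SE), -1.76 ± 0.26, -1.79 ± 0.23 and -1.65 ± 0.24, in the same order. This scale understates the change of low loci. The reads over the 4 introns numbered 165 to 276 in the DMSO libraries and 47 to 100 in the TBT libraries, although all F3 P6 libraries held at least 4104928 reads at LTR loci. Over all 104835 loci tested in F3 P6, 36 passed a false discovery rate (FDR) of 0.05 by limma, which is 0.0343%, and 15 of these were lower (0.0143%). The 7 Akr1e1 loci were among the 15 as the choice of the gene fixed, and nothing is read from that count. The TBT libraries were all below the DMSO libraries at 1.14% of the tested loci.

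**Figure D2:**
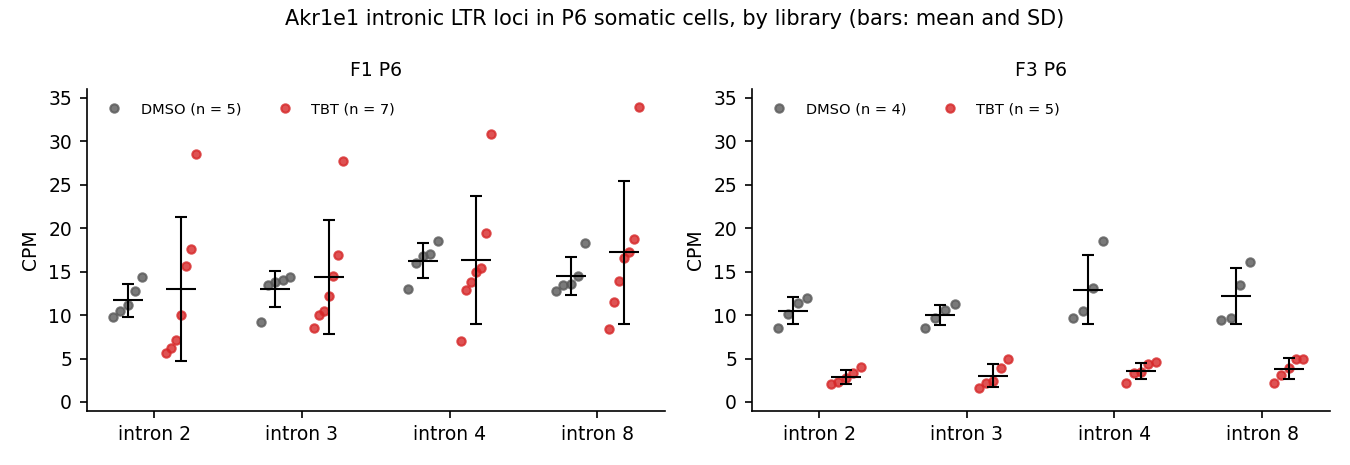
CPM (vertical axis) of the Akr1e1 loci in P6 somatic cells for introns 2, 3, 4 and 8, with 1 point per library, DMSO in grey and TBT in red, and the mean and SD as bars. In F3 the TBT libraries lie between 1.66 and 4.97 CPM, below all DMSO libraries, while in F1 the groups overlap.

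Markers of other cell types were read in the same F3 P6 libraries. Of 33 marker genes with an LTR locus, the groups did not overlap at 3, namely Cyp17a1 of Leydig cells, lower in TBT (7.03 to 12.1 against 12.6 to 24.1 CPM), and Pdgfra of interstitial cells (114 to 162 against 82.1 to 101 CPM) and Tek of endothelial cells (28.9 to 37.3 against 9.18 to 27.4 CPM), both higher. These are sums per gene; of single loci, 1.14% had every TBT library below and 1.76% every TBT library above every DMSO library. The sum over the 3 of 6 Leydig markers with a locus was 40.5 to 73.2 CPM in the DMSO and 29.4 to 39.1 CPM in the TBT libraries, with no marker at 0 in either group. The germ cell sum was 34.9, 44.1, 228.5 and 262 CPM in DMSO libraries 1, 2, 4 and 3 and 28.8 to 32.8 CPM in TBT, so DMSO libraries 3 and 4 stood apart. Library 4 was also the highest DMSO library at introns 3, 4 and 8 and the lowest at intron 2. The Leydig and germ cell sums did not overlap between the groups, while those of endothelial (96.0 to 129 in DMSO, 128 to 160 CPM in TBT), Sertoli (1154 to 1983, 1419 to 1964), interstitial (506 to 735, 529 to 717) and blood cell markers (83.1 to 113, 76.4 to 87.2) did. Their part in the result was not tested. In F1 P6, TBT libraries 11 and 10, the highest for Akr1e1 with mean levels of 29.5 and 17.25 CPM, also had the highest Leydig sums, 328 and 246 CPM, and the lowest endothelial sums, 33.5 and 78.7 CPM. The part of these cells in the F1 values was likewise not tested.

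In F1 P6 cells, which were exposed directly in utero, the groups overlapped at every intron and no locus passed the test. In intron 2, the DMSO libraries had 9.73, 10.4, 11.2, 12.7 and 14.4 CPM, and the 7 TBT libraries ran from 5.59 to 28.5 CPM with a median of 9.98. The TBT libraries lay on both sides of the DMSO libraries, with 3 below all of them and 3 above. In intron 3 the 5 DMSO libraries had a median of 13.8 CPM (9.25 to 14.4) and the TBT libraries of 12.2 CPM (8.54 to 27.8). In intron 4 the medians were 16.8 CPM (12.99 to 18.46) and 14.97 CPM (7.06 to 30.8), and in intron 8 they were 13.5 CPM (12.7 to 18.3) and 16.5 CPM (8.42 to 33.9). TBT library 11 was the highest of the 12 at all 4 introns.

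The TBT minus DMSO difference in F1 P6 was -0.07 ± 0.29 (SE) in intron 2, 0.06 ± 0.22 in intron 3, -0.10 ± 0.23 in intron 4 and 0.14 ± 0.23 in intron 8 on the log2 scale, with adjusted p = 0.999 by limma at each. Of the 7 loci, 0 passed, beside 3 (0.00341%) of the 88037 tested in this population. The 95% confidence intervals ran from -0.66 to 0.60 over the 4 introns. The F1 and F3 tables were normalized separately, and the difference between the generations was not tested.

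In F1 P4 germline cells, the TBT means lay below the DMSO means at every intron, but the groups overlapped and no locus passed the test. In intron 2, the DMSO libraries had 8.13, 9.03, 9.15, 9.47 and 9.87 CPM, and the TBT libraries ran from 4.61 to 12.3 CPM with a median of 6.61. Here 5 of 7 TBT libraries lay below all DMSO libraries and the other 2 above them. In intron 3 the DMSO libraries ran from 8.27 to 10.98 CPM and the TBT libraries from 6.496 to 11.5 CPM, in intron 4 from 9.87 to 12.1 and from 5.76 to 13.5 CPM, and in intron 8 from 8.09 to 16.5 and from 6.83 to 14.5 CPM. The TBT ranges were the wider ones in introns 2, 3 and 4. The difference was -0.36 ± 0.23 (SE, 95% confidence interval -0.82 to 0.11, adjusted p = 0.769 by limma) in intron 2, -0.15 ± 0.19 in intron 3, -0.31 ± 0.21 in intron 4 and -0.24 ± 0.21 in intron 8, and none of the 7 loci passed. Across this population 0 of 91621 loci passed (0%), with 6496 at an unadjusted p under 0.05, and edgeR's quasi-likelihood test on reads also called 0 and its likelihood ratio test 90.

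In F1 P5 germline cells, the TBT libraries of intron 2 again lay mostly below the DMSO libraries. The DMSO libraries had 7.24, 7.41, 7.57 and 7.89 CPM, and the TBT libraries ran from 4.09 to 10.4 CPM with a median of 5.96. Here 6 of 7 TBT libraries lay below all DMSO libraries, and library 47-4 lay above them. Every TBT library lay below every DMSO library at 0.392% of the loci tested in this population, and at none of the 7. At introns 3, 4 and 8, TBT libraries below all DMSO libraries numbered 3, 1 and 0 of 7. The difference was -0.34 ± 0.24 (SE) in intron 2 (adjusted p = 0.839 by limma) and -0.20 ± 0.21, -0.03 ± 0.24 and 0.15 ± 0.22 in introns 3, 4 and 8. None of the 7 loci passed, beside 13 of 122303 in the population (0.0106%).

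In F3 P4 germline cells, the values spread widely, and the lowest were in the shallow libraries. In intron 2, the DMSO libraries had 6.84, 11.8, 13.6 and 16.1 CPM, and the TBT libraries had 0, 2.03, 8.44, 8.62 and 10.2 CPM. The lowest pair of TBT libraries were libraries 9 and 5, the shallow ones, with 0 and 3 reads at this intron. They lay below all DMSO libraries and the other 3 among them, while at 1.76% of all tested loci every TBT library lay below every DMSO library. The TBT minus DMSO difference was -1.79 ± 1.17 (SE) in intron 2, -1.60 ± 1.19 in intron 3, -1.62 ± 1.20 in intron 4 and -1.12 ± 0.92 in intron 8, with adjusted p = 0.870 by limma at each. The median over all loci tested in this population was -0.69, and with libraries scaled to the same total it was -0.50. None of the 7 loci passed, and neither did any other (0%, with 1424 of 86412 at an unadjusted p under 0.05, 0 by edgeR's quasi-likelihood test and 4 by its likelihood ratio test). Without the shallow libraries, a choice made after seeing the data, the differences were -0.34, -0.17, -0.33 and -0.15 in introns 2, 3, 4 and 8, the median over all loci was 0.38, and still 0 of the 7 loci passed.

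In F3 P5 germline cells, a library of each exposure had no read at any Akr1e1 locus. In intron 2, the DMSO libraries had 0, 4.43, 9.23 and 9.41 CPM, and the TBT libraries had 0, 5.57, 7.06, 11.5 and 14.4 CPM. The libraries at 0, DMSO 2 and TBT 5, were the shallow ones, and 2 of 5 TBT libraries lay above all DMSO libraries while the other 3 lay among them. The difference was 0.47 ± 1.46 (SE) in intron 2, 0.12 ± 1.45 in intron 3, 0.70 ± 1.46 in intron 4 and 0.46 ± 1.47 in intron 8, and no locus passed (adjusted p = 1.00 by limma at each, with 0% of 105423 loci called, 1066 at an unadjusted p under 0.05, 0 by edgeR's quasi-likelihood test and 3297 by its likelihood ratio test). Without the shallow libraries the differences were 0.30, -0.15, 0.59 and 0.26 in introns 2, 3, 4 and 8, and 0 of the 7 loci passed. The 95% confidence intervals of intron 2 ran from -4.27 to 0.69 in P4 and from -2.39 to 3.33 in P5.

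**Figure D3:**
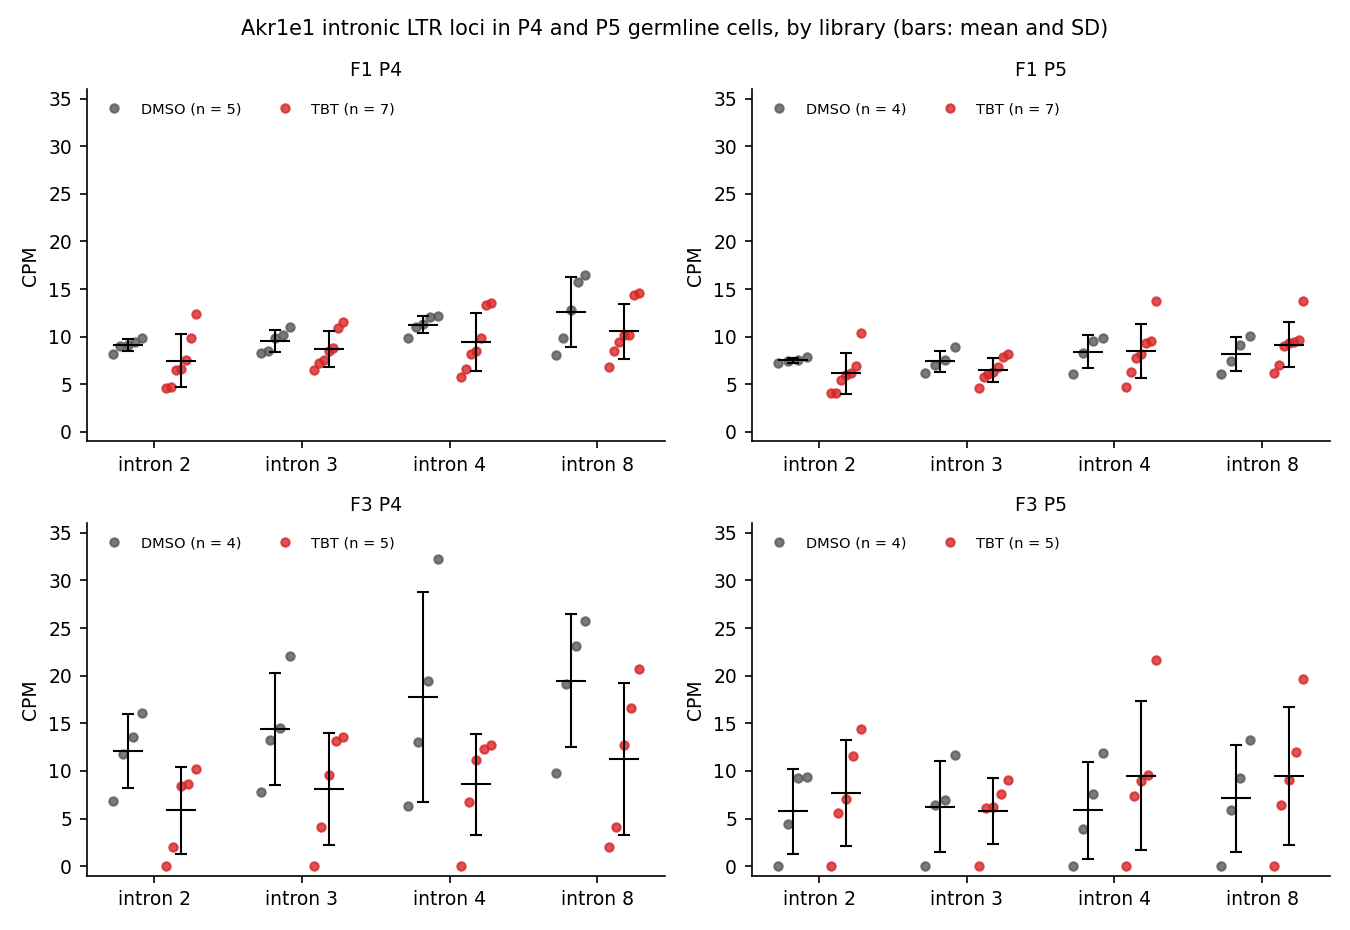
CPM (vertical axis) of the Akr1e1 loci in P4 and P5 germline cells of F1 and F3 for introns 2, 3, 4 and 8, with 1 point per library, DMSO in grey and TBT in red, and the mean and SD as bars. The F3 libraries range from 0 to 32.2 CPM, and the F1 libraries from 4.09 to 16.5 CPM.

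**Figure D4:**
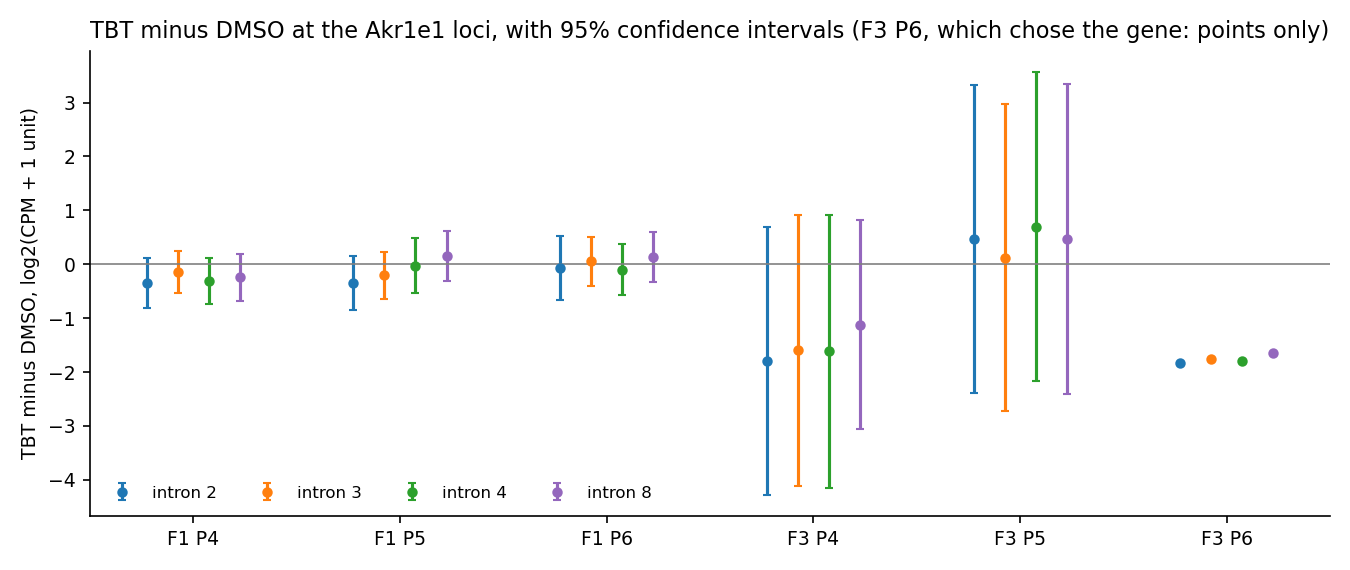
TBT minus DMSO difference on the log2(CPM + 1 unit) scale (vertical axis) for the 4 introns in each of the 6 populations, with its 95% confidence interval except in F3 P6, the population that chose the gene. The intervals in F1 are narrow and include 0, those in F3 P4 and P5 are wide and include 0, and the F3 P6 points lie between -1.82 and -1.65.

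P5 was compared with P4 within each generation, with the exposure as a covariate, since both populations stand in 1 table. In F1, the P5 minus P4 difference was -0.26 ± 0.16 (SE) on the log2 scale in intron 2, -0.39 ± 0.13 in intron 3, -0.25 ± 0.16 in intron 4 and -0.35 ± 0.15 in intron 8. Of the 7 loci, only that of intron 3 passed the test, lower in P5 (adjusted p = 0.0172 by limma), and the adjusted p was 0.199 in intron 2, 0.202 in intron 4 and 0.0708 in intron 8. That is 1 of 7 loci, in a comparison where 39.3% of 101401 loci passed and 21.6% were lower in P5. The call in intron 3 was lost with libraries scaled to the same total (difference -0.24) and with edgeR's quasi-likelihood test on reads (-0.29), while the locus of intron 8 passed as well when loci had to average 20 units or more (-0.35). Scaling to the same total moved the median of all loci from -0.11 to 0.03, and the split of all calls from 17882 higher and 21933 lower to 21020 higher and 11628 lower, while the difference stayed below 0 at all 4 introns. In F3, the difference was -0.60 ± 0.97 in intron 2, -1.03 ± 0.96 in intron 3, -0.98 ± 0.99 in intron 4 and -1.41 ± 0.93 in intron 8, and 0 of 7 loci passed, beside 1.01% of 98076 in either direction and 0.0112% lower; without the shallow libraries the differences were -0.33, -0.73, -0.61 and -0.79 and 0 of 7 passed. The effect of TBT was not shown to differ between P5 and P4 at any of the 7 loci (adjusted p = 1.00 by limma in F1, where 0.000986% of loci passed, and 0.997 in F3, where 0% passed and 1364 had an unadjusted p under 0.05), with differences of 0.02 ± 0.33 and 2.25 ± 1.95 in intron 2.

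The mean CPM over the 7 loci put the 12 groups in 1 order, to be read with care since P4 and P5 of a generation share a table but P6 and the other generation do not. It was 14.3 in F3 P4 DMSO, 14.25 in F1 P6 TBT, 12.9 in F1 P6 DMSO, 11.01 in F3 P6 DMSO, 9.99 in F1 P4 DMSO, 8.37 in F1 P4 TBT, 7.95 in F3 P5 TBT, 7.73 in F1 P5 DMSO, 7.34 in F3 P4 TBT, 6.94 in F1 P5 TBT, 6.04 in F3 P5 DMSO and 3.13 in F3 P6 TBT. The library ranges overlapped in 10 of the 11 pairs of neighbours in this order, the exception being F1 P6 DMSO and F3 P6 DMSO. This mean counts every locus of intron 2, although these gave 1 measurement, and the order depends on that. With each intron counted once, F1 P6 DMSO (12.8 to 16.0 CPM) and F3 P6 DMSO (10.2 to 13.6 CPM) overlapped too. F3 P4 TBT (8.44 CPM) then stood above F3 P5 TBT (8.12 CPM) and F1 P5 DMSO (7.89 CPM). F3 P6 TBT stood last with a range of 2.10 to 3.90 CPM, which lay inside the range of 0 to 10.6 CPM of F3 P5 DMSO, the group before it.

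Methylated DNA was read in P6 cells by MBD-seq, and the deposited tables held 1 window of 100 bases in Akr1e1 for each generation, neither of which overlapped an LTR locus. The F1 window, with 1 CpG, lay in intron 2 at chr13:4605401-4605500, and the F3 window, with 2 CpG sites, at chr13:4597401-4597500, where it reached into exon 6. Their sequences are shown on the plus strand with the CpG sites in capitals, since these are the sites the enrichment reads.
F1 window: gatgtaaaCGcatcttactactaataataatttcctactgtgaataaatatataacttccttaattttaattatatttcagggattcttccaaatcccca
F3 window: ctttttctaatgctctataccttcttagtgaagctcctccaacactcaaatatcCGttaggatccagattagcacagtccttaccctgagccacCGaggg
In the F1 window, the DMSO libraries had 8.24, 9.39 and 14.2 CPM and the TBT libraries 9.03, 10.2, 12.5 and 17.2 CPM. These values, which rest on 6 to 29 reads a library, overlapped, and the TBT minus DMSO difference was 0.13 on the log2 scale (0.03 to 0.36 with 1 library left out, adjusted p = 0.996 by edgeR's quasi-likelihood test). In the F3 window, the DMSO libraries had 9.09, 15.2, 17.9, 18.54 and 19.0 CPM and the 7 TBT libraries ran from 12.4 to 19.8 CPM with a median of 15.8. The groups overlapped here too, and the difference was -0.06 (adjusted p = 0.996). Neither window passed, beside 0.0318% of 34559 windows in F1 (0.00579% higher and 0.026% lower) and 0% of 47563 in F3 (0 windows, with 2455 at an unadjusted p under 0.05 and also 0 by DESeq2). The gene body holds 128 CpG sites, so these windows read 1 and 2 of them.

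The LTR loci around Akr1e1 were also tested in P6 cells. Within 1 Mb, 44 other loci were tested in F3 P6, all of them downstream of the gene and the nearest 520394 bases from its start, and their TBT minus DMSO differences ran from -0.42 to 0.56 with a median of -0.20; 0 passed, beside 0.0343% of all loci. In F1 P6, 42 were tested, with differences from -0.40 to 0.93, and a median of -0.003; 0 passed, beside 0.00341% of all loci. Several of the tested neighbours gave an identical difference and SE, such as -0.20 ± 0.29 in F3 P6 and -0.08 ± 0.37 in F1 P6. The neighbours are therefore fewer separate measurements than their counts. No other locus closer to the start of Akr1e1 on either side had enough reads to be tested in P6. In the germline populations, 25 to 46 of the 774 other loci within 1 Mb were tested, and none passed between TBT and DMSO, beside 0% to 0.0106% of all loci.

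**Figure D5:**
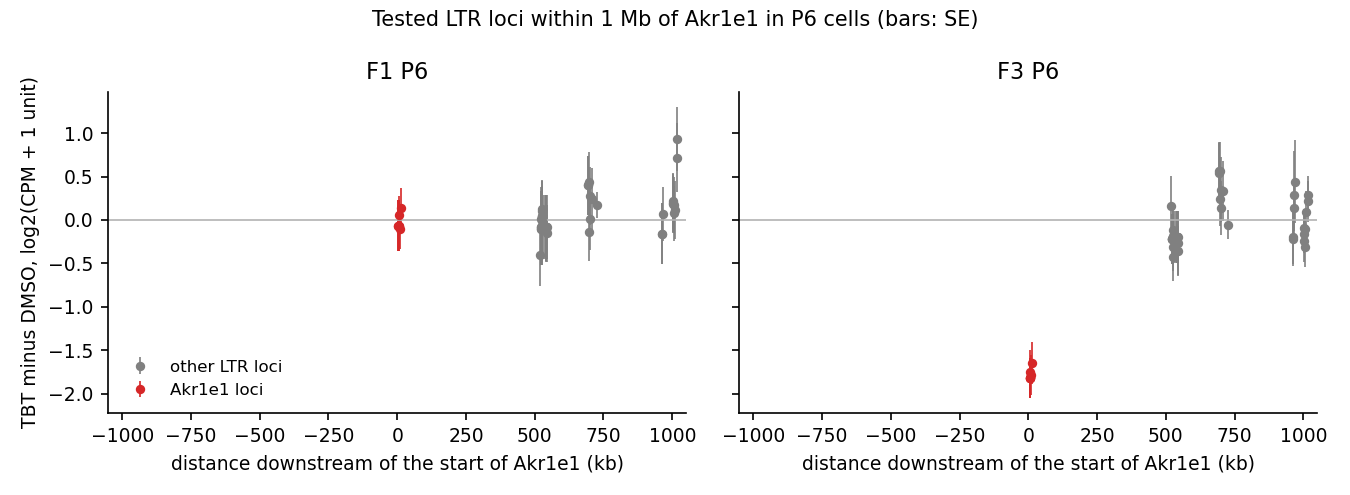
TBT minus DMSO difference on the log2(CPM + 1 unit) scale (vertical axis) with its SE for every tested LTR locus within 1 Mb of Akr1e1, against the distance in kb downstream of the start of the gene, in F1 P6 and F3 P6. In F3 P6 the 7 Akr1e1 loci lie between -1.82 and -1.65 and the other 44 between -0.42 and 0.56.

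The Akr1c genes gave few reads in P6. Of the 9 genes examined, with 70 loci, Akr1c14 and Akr1cl alone had loci that could be tested there, 34 in all, and none passed in F1, where 0.00341% of all loci did, or in F3, where 0.0343% did; Akr1cl lies on chromosome 1, outside the cluster. Akr1c14, a steroid-metabolizing member, had 2.18 to 4.73 CPM in the F3 DMSO and 2.07 to 3.86 CPM in the F3 TBT libraries at its highest locus, a difference of -0.20 ± 0.29 (SE, adjusted p = 0.900 by limma). Akr1c21, the nearest gene to the 3′ end of Akr1e1, had no read at its highest locus in any P6 library. In germline cells none of the 13 to 22 tested Akr1c loci passed between TBT and DMSO, beside 0% to 0.0106% of all loci, and in F1 12 of 21 were higher and 5 lower in P5 than in P4, where 17.6% of all loci were higher and 21.6% lower, a split that scaling to the same total turned. Akr1c genes are close copies of each other, and how reads that fit several copies were counted is not given in the sources used here. Loci of 1 intron can share their reads, as in Akr1e1, so the loci counted here need not be separate measurements.

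Genes of the same enzyme class and of glycogen metabolism, the pathway next to AKR1E1, were also read through their LTR loci. In F3 P6, 16 loci in 6 of 10 other aldo-keto reductase and potassium channel beta subunit genes were tested, with a median difference of -0.17, and 363 loci in 14 of 22 glycogen genes, such as the synthase Gys1 and the branching enzyme Gbe1, with a median of 0.04, against 0.02 over all loci. None passed in either list in this population, beside 0.0343% of all loci, or between TBT and DMSO in the other 5, where 0% to 0.0106% of all loci passed. Between P5 and P4 in F1, 8 of 327 glycogen loci were higher and 90 lower, and 0 of 39 loci of the other list were higher and 7 lower, beside 17.6% higher and 21.6% lower over all loci, a split that scaling to the same total reversed.

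The genes most like Akr1e1 were found from the summed CPM of the loci in each gene. Over all 62 RNA libraries, they were Bccip (Pearson r = 0.934), Txn2 (0.925), Exosc9 (0.922), Hprt (0.913) and Fam53a (0.907) of 9403 genes with enough reads, against a median r of 0.438 over all of these. The points share libraries, depth and the shallow F3 germline libraries, so these values are a description. Over the 21 P6 libraries, centred within each generation, they were Mrpl39 (0.835), Acot9 (0.797), Msrb2 (0.787), Dad1 (0.779) and Stard3nl (0.752) of 9942 genes, with a median r of 0.00943. These correlations use the 9 F3 P6 libraries that chose Akr1e1 and are no independent evidence.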

How the data were processed

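RNA of sorted cells was amplified from poly(A) with an oligo(dT) SMARTer kit and sequenced as 75 + 75 base pairs, and the submitters' processing notes name Trim Galore, STAR, edgeR and mm10 without versions. The authors counted reads per RepeatMasker LTR locus with a modified ERVmap and deposited CPM after TMM scaling, read here as signal values. The strand used in counting is not given in the sources used here. P4 and P5 of a generation stand in 1 deposited table and P6 in another, so P6 and P4 or P5, and F1 and F3, are set side by side without a test. In every library, all values were whole multiples of 1 read (tolerance 0.01 reads), worth 0.181 to 0.294 CPM (median over libraries, 1 unit). The deposited MBD tables hold counts per 100 base window that the authors made, beside a further score column with the number of CpG sites in each window. No authors' comparison was used in the fits.

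Groups came from the sample labels. Loci that averaged 5 units or more were tested on log2(value + 1 unit) with limma 3.58.1 (R 4.3.3, trended variance) over the whole table, with Benjamini-Hochberg adjustment and an FDR of 0.05. P5 was compared with P4 with exposure as a covariate, and the difference of the TBT effect as an interaction. MBD counts were tested with edgeR 4.0.16 (quasi-likelihood, TMM). Alternatives were dropping the filter or raising it to 20 units, pseudocounts of 0.25 and 4 units, libraries scaled to the same total, edgeR on the recovered reads, DESeq2 1.42.0 for MBD, a replicate block, and each library left out. The steps were tested on simulated data.

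Every locus wholly inside the gene was a member; 1 locus per intron, that with the highest mean CPM, is given in full. Context genes were the Akr1c cluster, other aldo-keto reductases, glycogen metabolism and cell type markers, each read through LTR loci in the gene body, and the 5 genes of highest Pearson r. The members and lists were chosen with earlier results of these data known.

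RNA libraries held 246520 to 8161548 reads at LTR loci, and MBD libraries 701493 to 1913353 in the windows. The 4 introns of Akr1e1 together had 0 to 340 reads a library, so counting error adds to the spread.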

Additional observations from a re-analysis of the deposited data

Results flagged for a closer look

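Among 51 groups of 4 to 7 libraries, 2 had a library whose gap to its nearest neighbour was large for the range of the group. The measure was Dixon's criterion, which chance alone meets in about 1 of 20 groups. In intron 3 (RLTR16B_MM), F1 P6 DMSO library 4 was the lowest with 9.251 CPM, below the other 4 DMSO libraries at 13.5 to 14.4 CPM. In intron 8 (MLT1J2), F1 P6 TBT library 11 was the highest with 33.92 CPM, and this library was also the highest at the other 3 introns.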

How the results depend on the processing

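In F3 P6, the population that chose the gene, the difference of the mean level ran from -1.86 to -1.65 with 1 library left out, given as a description. No Akr1e1 locus passed between TBT and DMSO in the other 5 populations under any alternative run. The loci called between P5 and P4 in F1, 1 in all, became 2 with the replicate block and with the filter raised to 20 units, the locus of intron 8 being gained in both (-0.30 and -0.35), 0 with libraries scaled to the same total and 0 with edgeR's quasi-likelihood test, and 1 to 2 with 1 library left out; the cause was not tested. The same replicate numbers in P4 and P5 are not stated to mark the same animal, and same-numbered libraries correlated from -0.00553 to 0.278 in F1 (6 of 11 above 0.1, 5 highest with their own number) and from -0.0878 to 0.46 in F3 (7 of 9, 4 highest), so the block was not used as the main fit; it moved all calls between P5 and P4 from 39815 to 45304 in F1 and from 994 to 1890 in F3.

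Differences near 0 turned sign, and so did larger ones in F3 P5, where the SE was wide. Fitted to reads by edgeR (quasi-likelihood first, then likelihood ratio), intron 4 in F1 P5 became 0.01292 and 0.01209, intron 2 in F1 P6 0.1437 and 0.1562, intron 4 in F1 P6 0.009361 and 0.01636, and intron 3 in F3 P5 -0.1202 and -0.1198; the last was -0.01073 with the same total and -0.154 without the shallow libraries. The difference of the TBT effect in intron 2 in F1 became -0.02017 with the quasi-likelihood test. With 1 library left out, sign changed in intron 4 of F1 P5 (-0.17 to 0.10), in F1 P6 introns 2 (-0.29 to 0.092), 3 (-0.12 to 0.16), 4 (-0.27 to 0.076) and 8 (-0.046 to 0.28), in F3 P5 introns 2 (-0.73 to 1.499), 3 (-1.11 to 1.08), 4 (-0.49 to 1.78) and 8 (-0.81 to 1.54), and in the F3 MBD window (-0.19 to 0.012). The F1 MBD window failed the count filter without TBT library 5 and gave no value.

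Counts over all loci moved more. F3 P6 had 36 calls, and 24 to 335 under the alternatives (24 and 53 with pseudocounts of 0.25 and 4, 83 without a filter, 61 and 335 with edgeR's 2 tests) or 12 to 144 with 1 library left out, the highest without DMSO library 2. F1 P5 had 13, and 3, 4, 391 or 998, or 4 to 59 with 1 library left out (4 without TBT library 47-3, 59 without DMSO library 48-4). F1 P6 had 3, and 0, 20 or 44, or 0 to 14 (14 without TBT library 11). P5 against P4 in F3 had 994, and 202, 3955 or 6040, or 399 to 3217 (399 without P4 DMSO library 3, 3217 without P5 TBT library 5). The F1 interaction had 1, and 7 or 8. F1 MBD had 11, and 7 or 0, or 0 to 12 (0 without DMSO library 2). F1 P4, F3 P4 and F3 P5 had 0, and 90, 4 and 3297 with edgeR's likelihood ratio test. Shallow F3 germline libraries and few reads per locus limit what can be seen.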
